A study of Mus musculus with 24 samples.

Results

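The comparison is between mouse embryonic stem cells labelled TRIM24-KO and the first of 2 wild-type (WT) lines of the same set, called WT line 1, after the transcription factor DUX had been switched on. It rests on 4 libraries of the 24 in the series, 2 for each side, chosen by sample title. All cells are of the KH2 line, an embryonic stem cell line, and the titles record a TRE_DUX construct in every one of them, that is, DUX behind a doxycycline-responsive promoter. Both sides also carry the tag pLV2, which the labels do not explain. Doxycycline (DOX) had been given for 16 h to the libraries titled DOX. The labels give no clone number beyond a 1 in the TRIM24-KO title, no age or sex, and no statement that replicates came from separate cultures, so the p-values measure the spread between these libraries, which may be technical. Cells were grown on gelatin or on a feeder layer of growth-arrested fibroblasts, and the labels do not say which was used for a given library. Levels are given as CPM, counts relative to the library's gene counts after these were multiplied by a scaling factor estimated from genes. Totals in CPM therefore differ between libraries. With DOX, the genes tested summed to 1.02773e+06 and 1.69032e+06 CPM in replicates 1 and 2 of TRIM24-KO. In WT line 1 they summed to 967922 and 1.00387e+06 CPM. Libraries of the same 2 lines without DOX (2 each) show what was already different before induction, and WT line 2 with DOX (2 libraries) shows how far 2 WT lines differ. In the pLV2 set, the treatment tag of the WT libraries titled DOX reads as untreated, and that of the TRIM24-KO and TRIM33-KO libraries without DOX reads as treated. Titles were followed, and the 2-cell genes described below bear on them: their summed level was 5079 to 7506 CPM in the 4 libraries titled DOX and 235 to 287 CPM in the 4 libraries of the same lines without it.

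DUX is a double-homeobox transcription factor that is active in the 2-cell mouse embryo at the start of zygotic transcription. In embryonic stem cells it drives a 2-cell-like program: Zscan4 genes, Zfp352, Tdpoz and Usp17l gene copies, and the endogenous retrovirus MERVL with its long terminal repeat MT2_Mm. TRIM24 belongs to the TIF1 family of chromatin-binding co-regulators, with TRIM28, TRIM33 and TRIM66. TRIM28 is the co-repressor that KRAB zinc finger proteins bring to endogenous retroviruses, and TRIM24 is known for binding histone H3 and as a co-regulator of retinoic acid receptors.

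The 4 libraries held 12425916 to 13311913 counts in genes and 1508763 to 1811328 in repeat subfamilies (10.2% to 12.5% of all counts). Levels in CPM are given with replicate 1 first. One library stood apart: in TRIM24-KO replicate 2 with DOX, CT010467.1, annotated as an rRNA gene on chromosome 17, took 30.4% of the gene counts, against 0.56% to 0.957% in the other 3. Of the gene counts without CT010467.1, mitochondrial transcripts took 16.1% and 21.2% in TRIM24-KO and 13.3% and 14.4% in WT line 1, so replicate 2 of TRIM24-KO was the highest here too. Of the 20 fibroblast markers, 12 were tested, their summed level was 87.3 to 90.6 CPM in TRIM24-KO and 105 to 113 CPM in WT line 1, and Postn, Lum and Prrx1 had no count in any of the 4. With DOX, 1 of the 12, Thy1, was higher (0.43, adjusted p = 0.0352). The call was lost with DESeq2 (adjusted p = 0.0722) and with only the compared groups fitted (adjusted p = 0.0611). It was also lost without TRIM24-KO replicate 1 (0.29), WT line 1 replicate 1 (0.35) or WT line 1 replicate 2 (0.52). The 3 lower ones were Fbln1, Loxl1 and Col5a2, and the median of the 12 was -0.27. The count of lower genes fell when single libraries were left out, with medians from -0.36 to -0.19. The part of such cells in the results was not tested. Over all genes 17.8% were higher and 14.2% lower. Of 13 mitochondrial genes, 7 were higher and none lower (median 0.39); 4 were higher without TRIM24-KO replicate 2 (median 0.18), 4 without WT line 1 replicate 1 and 3 without WT line 1 replicate 2. The stem cell genes Pou5f1, Sox2 and Nanog stood at 302 CPM or more in all 4.

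Trim24 itself (chr6:37870811-37966296 in GRCm38, plus strand) was not lower in the libraries labelled TRIM24-KO. It stood at 123.4 and 120.3 CPM there and at 99.7 and 95.1 CPM in WT line 1. Every TRIM24-KO library was above every WT line 1 library, and the log2 fold change was 0.32 ± 0.10 (SE, n = 2 against 2; edgeR quasi-likelihood test, adjusted p = 0.0184). The call was lost without TRIM24-KO replicate 1 (0.30, adjusted p = 0.0845), WT line 1 replicate 1 (0.36, adjusted p = 0.056) or WT line 1 replicate 2 (0.29, adjusted p = 0.117). Against WT line 2, at 199 and 174 CPM, the sign turned (-0.61 ± 0.10, adjusted p = 7.02e-05). The 69 genes tested from 30 to 40 Mb of chromosome 6, where Trim24 lies, had a median of 0.90, above its 0.32. For WT line 2 over WT line 1 with DOX the median there was 1.26. The part of this stretch in the values of Trim24 was not tested. A gene count cannot show a frameshift, a small deletion or the protein, so the knockout could not be checked, and "TRIM24-KO" below means the libraries labelled so. Its relatives differed in both directions: Trim28 fell by 0.50 on the log2 scale (adjusted p = 8.79e-06), Trim33 rose by 0.26 (adjusted p = 0.00757; 0.24 and 0.0609 without WT line 1 replicate 2), and Trim66 had 1 and 0 counts in TRIM24-KO against 11 and 20 in WT line 1.

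With DOX, 3218 of 18079 genes tested were higher in TRIM24-KO than in WT line 1 (17.8%) and 2573 were lower (14.2%), at an adjusted p under 0.05 (edgeR quasi-likelihood test, adjusted over all genes tested). Past a log2 fold change of 1 there were 1188 higher and 704 lower genes. Most of the difference was there before induction. Without DOX, in other libraries of the same lines, 2969 genes were higher (16.4%) and 3131 lower (17.3%). That split turns with the scaling: without CT010467.1 it was 3486 higher and 2507 lower, and with another scaling, relative log expression, 3265 and 2744. In all, 4156 genes were called in the same direction at both times, which is 71.8% of the calls with DOX and 68.1% of those without; 15 genes were called in opposite directions. Of the genes called with DOX, 94.0% had the same sign without DOX, against 77.2% of all genes tested. The response to DOX itself differed between the lines, by the interaction test, in 36 genes: 34 responded more positively in TRIM24-KO (0.188% of those tested) and 2 more negatively (0.0111%). At an unadjusted p under 0.05 there were 1262. The 36 rest on single libraries: with any 1 of the 8 libraries left out the count was 5 to 57.

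**Figure D1:**
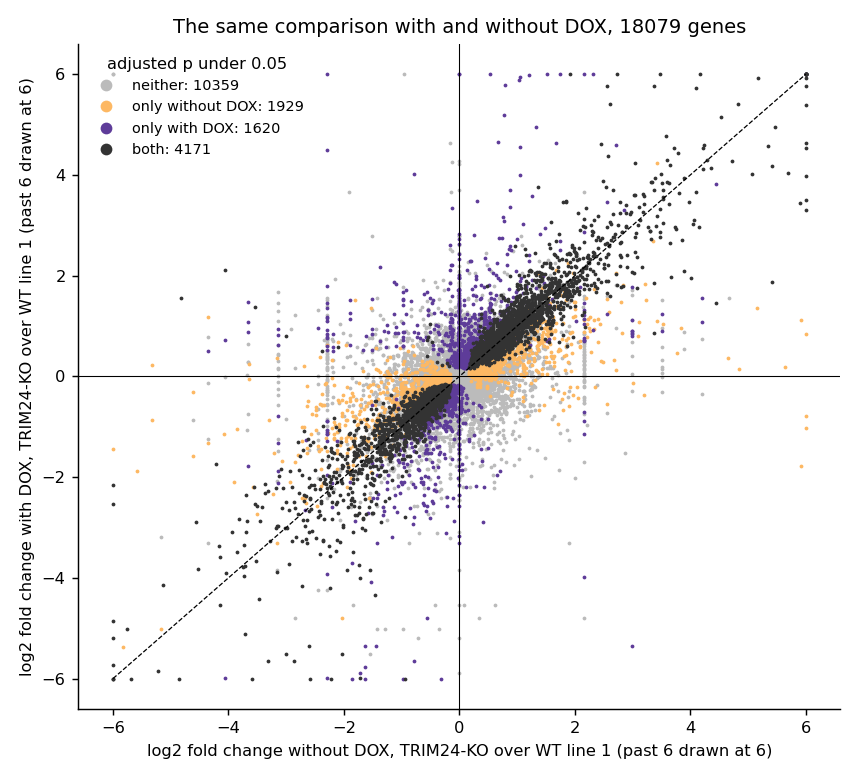
Each point is 1 of 18079 genes. The x axis gives the log2 fold change of TRIM24-KO over WT line 1 without DOX and the y axis the same with DOX, on separate libraries, with values past 6 drawn at 6; colours give where the adjusted p is under 0.05, and the dashed line is equality. Most genes called at both times lie along the dashed line.

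DUX and its program come first. Dux, named Duxf3 in the annotation (chr10:58229979-58232675, minus strand), was at 3.15 and 3.05 CPM in TRIM24-KO and at 7.23 and 8.32 CPM in WT line 1 with DOX. Reads from the construct and from the endogenous copies cannot be told apart in these counts. The TRIM24-KO libraries lay below both WT line 1 libraries, by a log2 fold change of -1.32 ± 0.26 (adjusted p = 0.00119), and did not pass the test against WT line 2 (-0.43, adjusted p = 0.211), which stood at 4.43 and 3.95 CPM. Without DOX, Duxf3 had no count in TRIM24-KO and 1 in each WT line 1 library. Duxbl1, a Dux-like gene, was at 7.54 and 8.52 CPM against 11.9 and 13.5 CPM (log2 fold change -0.67, adjusted p = 0.0508).

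More DUX-responsive genes were higher than lower in TRIM24-KO, while Duxf3 was lower. Of 49 genes listed as 2-cell genes, 43 were tested. With DOX, 16 were higher in TRIM24-KO and 2 lower, against 17.8% and 14.2% of all genes, and 25 did not pass the test, with a median log2 fold change of 0.16 against 0.00 over all genes tested. Without DOX 4 were higher and 1 lower (median -0.56), against 16.4% and 17.3% of all genes, at a summed level of only 235 to 287 CPM. The counts with DOX moved with single libraries: they were 11 higher and 7 lower (median -0.09) without TRIM24-KO replicate 2, and 8 higher and 2 lower (median 0.07) without WT line 1 replicate 1. The number of cells in the 2-cell-like state and the RNA per such cell cannot be told apart in bulk libraries. Zfp352, a zinc finger gene of the 2-cell stage, was at 134.7 and 211.6 CPM in TRIM24-KO and at 51.6 and 69.0 CPM in WT line 1. The groups did not overlap, and the log2 fold change was 1.51 ± 0.16 (adjusted p = 4.66e-06). Tdpoz4 and Tdpoz2, copies of a gene family with BTB domains, rose by 1.53 each (adjusted p = 2.03e-05 and 2.68e-05), and Tcstv3 rose by 0.85 (adjusted p = 0.00105). Tdpoz, Usp17l, Zscan4 and Tcstv genes are near-identical copies, so how reads were shared among them is uncertain.

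None of the 6 tested Zscan4 genes passed the test, with log2 fold changes from -0.44 (Zscan4b) to 0.12 (Zscan4c). Zscan4c, a telomere-associated factor of the 2-cell stage, was at 327.6 and 495.1 CPM against 343.6 and 413.4 CPM, so the groups overlapped (log2 fold change 0.12 ± 0.19, adjusted p = 0.674). Zscan4d (-0.02, adjusted p = 0.967) and the deubiquitinase copy Usp17lb (-0.29, adjusted p = 0.191) did not pass the test either. The 2 lower members were Gm6763 (-1.15, adjusted p = 0.0343) and the water channel Aqp3 (-0.49, adjusted p = 0.0138). Both calls rest on single libraries: Aqp3 did not pass without TRIM24-KO replicate 2 (-0.40, adjusted p = 0.099) or without WT line 1 replicate 2 (-0.38, adjusted p = 0.134), and Gm6763 did not pass without TRIM24-KO replicate 1, TRIM24-KO replicate 2 or WT line 1 replicate 2 (-0.65 in the last). Usp17lb passed without TRIM24-KO replicate 2 (-0.51, adjusted p = 0.0425). Summed over the list, the level was 5094 and 7506 CPM in TRIM24-KO and 5079 and 6130 CPM in WT line 1, so the sums overlapped.

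A wider list gave the same picture with the same limit. It shares genes with the first, such as AF067061, and was read in the same libraries, so it is not independent of it. DOX raised 502 genes by a log2 fold change of at least 1 in plain WT cells of the series, which are not libraries of this comparison. The spread was estimated together with the plain DUXBL-KO libraries, and Duxf3 itself is among the 502. Of these, 218 were higher and 36 lower in TRIM24-KO than in WT line 1, against 17.8% and 14.2% of all genes, with a median log2 fold change of 0.50. The counts and the median moved with single libraries, in both directions. The median was 0.24 without TRIM24-KO replicate 2 and 0.73 without TRIM24-KO replicate 1. It was 0.39 without WT line 1 replicate 1 and 0.63 without WT line 1 replicate 2. Without DOX only 8 were higher and 19 lower (median -0.08). Both lines induced nearly all of them: 497 of the 502 rose with DOX in each line. The median log2 response was 8.42 in TRIM24-KO and 7.75 in WT line 1. These responses rest on low counts without DOX, where the 502 genes summed to only 790 to 1012 CPM. In the interaction test 11 of the 502 passed, all in the positive direction, against 0.188% of all genes. The summed level was 20526 and 29145 CPM in TRIM24-KO and 17791 and 21498 CPM in WT line 1, and these ranges overlapped as well.

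The direction depends on which WT line is the reference. WT line 2 with DOX stood above both: its summed level over the 502 genes was 44628 and 36208 CPM. Over all genes, 24.6% were higher and 22.1% lower in TRIM24-KO than in WT line 2. That comparison uses the same TRIM24-KO libraries, so it is not independent of the one above. In it, 48 of the 502 genes were higher and 229 lower, with a median of -0.53, and of the 43 2-cell genes 4 were higher and 24 lower (median -0.63). Zscan4c then fell by 1.40 (adjusted p = 1.47e-05) and Tcstv3 by 0.98 (adjusted p = 9.35e-05), and Zfp352 stood at -0.09 (adjusted p = 0.657). The sums of TRIM24-KO overlapped those of WT line 1 and lay below both of WT line 2.

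**Figure D2:**
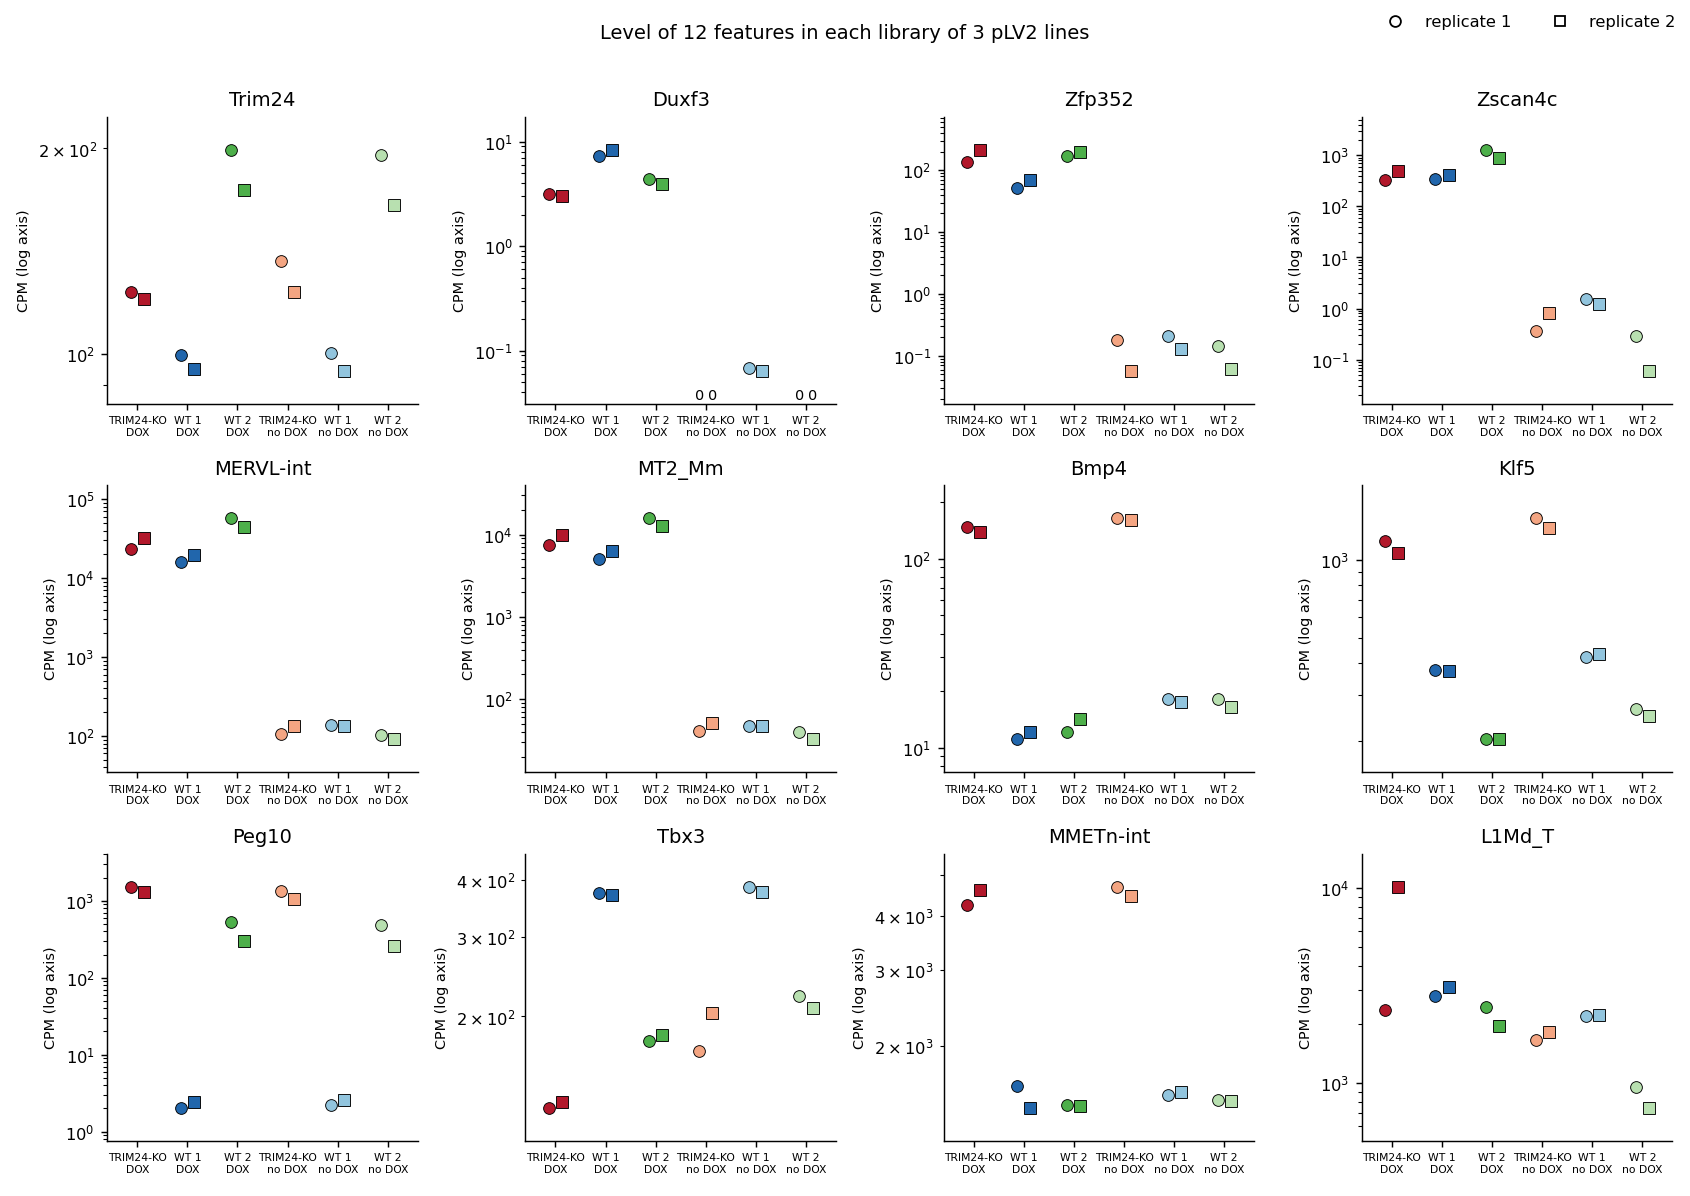
Level of 12 features in each library of the TRIM24-KO line and both WT lines, with and without DOX, in CPM on log axes that differ between panels; circles are replicate 1 and squares replicate 2, and a 0 marks a library with no count. Zfp352, Zscan4c, MERVL-int and MT2_Mm rise with DOX in every line; Bmp4, Klf5 and MMETn-int are high in TRIM24-KO with and without DOX; L1Md_T is high in 1 library.

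Promoters of the DOX-raised genes show how alike some of these copies are. RefSeq promoters (GRCm38.p6) were matched by symbol for 11616 genes tested and for 178 of the 502. The only motif searched was the palindrome GATTNAATC, the core of the site known for DUX, which is the same on both strands. In the 250 bases before the start it was found in 11 of the 178 (6.18%) and in 30 of the 11616 (0.258%). Of those 11, 3 were called higher in TRIM24-KO, 2 lower, and 6 were not called, against 92 higher and 7 lower of the 178. Over all genes 17.8% were higher and 14.2% lower. The 2 lower ones are Gm21293 and Duxf3 itself. The 11 are not 11 separate promoters: those of Gm12724, Gm12790, Gm21293, Gm35974 and Gm4340 were 96.6% to 97.9% identical to that of Gm33248. The 3 printed here are 1 higher and 1 lower gene with nearly the same promoter and 1 higher gene with another; the motif is in capitals. Gm33248 spans chr7:129667175-129667424, plus strand; Gm21293 spans chr10:104142737-104142986, plus strand; AF067061 spans chr13:120262845-120263094, plus strand.
Gm33248: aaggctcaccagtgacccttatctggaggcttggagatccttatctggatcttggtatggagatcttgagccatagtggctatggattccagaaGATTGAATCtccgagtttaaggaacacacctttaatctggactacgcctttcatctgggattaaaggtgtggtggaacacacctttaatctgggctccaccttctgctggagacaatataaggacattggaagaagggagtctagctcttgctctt
Gm21293: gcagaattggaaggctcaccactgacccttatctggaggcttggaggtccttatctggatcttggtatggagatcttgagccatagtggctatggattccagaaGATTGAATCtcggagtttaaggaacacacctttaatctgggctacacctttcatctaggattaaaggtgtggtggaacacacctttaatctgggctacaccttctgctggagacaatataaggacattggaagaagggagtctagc
AF067061: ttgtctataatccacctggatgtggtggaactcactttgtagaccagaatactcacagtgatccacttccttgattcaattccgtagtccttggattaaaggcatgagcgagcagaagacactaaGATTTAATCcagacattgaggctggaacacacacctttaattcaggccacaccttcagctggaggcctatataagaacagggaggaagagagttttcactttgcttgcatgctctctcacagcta
Aligned at the motif without gaps, the Gm33248 and Gm21293 promoters were identical at 233 of 240 bases (97.1%), and those of AF067061 and Gm33248 at 68 of 219 (31.1%). Gm33248 was at 10.4 and 15.6 CPM in TRIM24-KO against 5.33 and 5.75 CPM in WT line 1 (log2 fold change 1.20, adjusted p = 0.000871; 0.09 and 0.756 against WT line 2), while Gm21293 was at 6.54 and 7.37 CPM against 10.8 and 19.8 CPM (-1.15, adjusted p = 0.0282). The call of Gm21293 was lost without WT line 1 replicate 2 (-0.65, adjusted p = 0.286), TRIM24-KO replicate 1 (adjusted p = 0.155) or TRIM24-KO replicate 2 (adjusted p = 0.0695). AF067061, a gene of the 2-cell list, was at 73.1 and 90.9 CPM against 37.1 and 50.2 CPM (0.90, adjusted p = 0.000196); against WT line 2 it was lower (-0.56, adjusted p = 0.00394). The match is a description of these letters, not of binding, and how reads were shared among the transcripts of such copies is uncertain.

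The 36 genes with a different response to DOX are 0.188% (positive) and 0.0111% (negative) of all genes. None of the 43 tested 2-cell genes was among them. The median difference of responses was 0.68 over these 43 and 0.03 over all genes. Without DOX the 43 summed to only 235 to 287 CPM in these lines, so their responses rest on low counts. Mgll, the lipase that breaks down monoacylglycerol, had the highest positive value among those named by rule. It was at 38.6 and 35.3 CPM in TRIM24-KO with DOX and 2.10 and 1.45 CPM without, but at 0.381 and 0.605 CPM with DOX and 0.686 and 0.257 CPM without in WT line 1. The difference of the log2 responses was 4.30 ± 0.74 (adjusted p = 0.0232). In WT line 2 with DOX Mgll stood at 23.0 and 23.9 CPM, far above WT line 1. Hspa1a, an inducible HSP70 chaperone gene, was at 29.2 and 27.8 CPM against 6.09 and 6.28 CPM with DOX, and at 1.68 and 2.03 against 2.06 and 1.99 CPM without. Its responses differed by 2.33 (adjusted p = 0.029), and those of its neighbouring copy Hspa1b by 1.93 (adjusted p = 0.00834). Tmem132c, a membrane protein gene, differed by 2.69 (adjusted p = 0.0278, and 0.0866 with only the compared groups fitted).

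Genes with small p-values among the 36 included Csrnp1, Dhcr7, Robo1 and Grb2, picked after their values were seen. Csrnp1, a nuclear protein gene induced by AXIN1, was at 130.2 and 135.1 CPM against 34.2 and 41.9 CPM with DOX (difference of responses 1.32, adjusted p = 0.00287). Dhcr7, the last enzyme of one branch of cholesterol synthesis, was lower in TRIM24-KO without DOX (-0.47, adjusted p = 0.00232) and higher with it (0.69, adjusted p = 5.69e-05). Grb2, the adaptor between receptor tyrosine kinases and RAS, stood at -0.02 without DOX and was higher with it (0.75, adjusted p = 4.13e-07). Robo1, an axon guidance receptor, responded more in TRIM24-KO (1.47, adjusted p = 0.00287) and its level without DOX was lower there, at 27.0 and 34.7 against 78.6 and 81.1 CPM. Dppa2, which helps to activate Dux in embryonic stem cells, was at 242.5 and 281.5 CPM against 145.4 and 151.0 CPM with DOX and differed by 0.75 in response (adjusted p = 0.00834). The 2 negative genes were Nupr1, a stress-response gene (-1.85 ± 0.25, adjusted p = 0.006), and Dnah8, an axonemal dynein gene (-0.74 ± 0.12, adjusted p = 0.0201). Csrnp1, Dhcr7, Robo1 and Nupr1 passed with any 1 of the 8 libraries left out. With WT line 2 as the reference, the responses of Dhcr7, Robo1, Nupr1 and Grb2 differed past the threshold as well, while the levels with DOX of Dhcr7 (0.12, adjusted p = 0.346) and Grb2 (0.15, adjusted p = 0.0703) did not. The responses of Csrnp1 (0.26, adjusted p = 0.614), Hspa1b (0.53, adjusted p = 0.606), Dppa2 (0.54, adjusted p = 0.0555) Tmem132c (1.67, adjusted p = 0.194) and Dnah8 (-0.20, adjusted p = 0.653) did not pass there, Mgll stood at -0.71 and Hspa1a at -0.78, and 12 of the 36 were called in the same direction. When single libraries were left out, the others named did not always pass: without WT line 1 replicate 1 of the libraries without DOX, Mgll was at 3.40 (adjusted p = 0.721), Hspa1a at 2.24 (adjusted p = 0.248), Hspa1b at 1.80 (adjusted p = 0.116), Tmem132c at 2.67 (adjusted p = 0.141), Dppa2 at 0.70 (adjusted p = 0.108), Grb2 at 0.70 (adjusted p = 0.0706) and Dnah8 at -0.75 (adjusted p = 0.126).

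Large differences were found in imprinted genes, which are read from 1 parental copy. Peg10 (chr6:4747306-4760517, plus strand) was at 1512 and 1290 CPM in TRIM24-KO and at 2.06 and 2.42 CPM in WT line 1, a log2 fold change of 9.28 ± 0.37 (adjusted p = 4.39e-11). WT line 2 held it at 528 and 304 CPM, so that TRIM24-KO was higher there too, by 1.75 (adjusted p = 1.63e-05). The non-coding RNAs Rian (chr12:109603940-109661716) and Meg3 (chr12:109541001-109571726) of the Dlk1-Dio3 cluster, both on the plus strand, were at 174.9 and 191.1 CPM and at 108.2 and 116.9 CPM in TRIM24-KO. In WT line 1 they were at 0.761 and 1.59 CPM and at 0.989 and 0.908 CPM (log2 fold changes 7.27 and 6.88, adjusted p = 2.06e-13 and 2.13e-13). Mirg of the same cluster had 312 and 199 counts against 1 and 4. WT line 2 held Rian at 198.0 and 189.3 CPM and Meg3 at 115.4 and 106.5 CPM, differing from TRIM24-KO by -0.08 (adjusted p = 0.542) and 0.02 (adjusted p = 0.892). Among these lines the low level of Rian and Meg3 was that of WT line 1. Of 31 imprinted genes tested, 13 were higher and 4 lower, against 17.8% and 14.2% of all genes. The counts were 8 higher and 10 lower against WT line 2, where 24.6% and 22.1% of all genes were. The higher share there is near that of all genes. Set against WT line 1, H19, a non-coding RNA read from the maternal copy, was lower, at 0.828 and 0.635 against 6.09 and 5.83 CPM (-2.98, adjusted p = 3.02e-06).

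The other genes with the smallest p-values among those higher were higher against both WT lines. Bmp4, a BMP ligand (chr14:46383520-46390669, minus strand), was at 147.5 and 138.9 CPM in TRIM24-KO, at 11.11 and 12.03 CPM in WT line 1 and at 12.1 and 14.2 CPM in WT line 2. Its log2 fold change against WT line 1 was 3.63 ± 0.11 (adjusted p = 2.15e-12) with DOX and 3.18 without. Spry2, an inhibitor of receptor tyrosine kinase signalling, was at 648.5 and 530.6 CPM against 103.9 and 108.0 CPM (2.48 ± 0.09, adjusted p = 1.48e-11). Car2, a carbonic anhydrase, was at 153.4 and 148.1 CPM against 19.4 and 17.6 CPM (3.02 ± 0.11, adjusted p = 2.49e-11). The transporter Abcc4 (1.71), the ubiquitin hydrolase Uchl3 (1.79) and the E3 ligase Mycbp2 (2.01), all on chromosome 14, completed the 10 (adjusted p of 3.78e-11 or less), with values against WT line 2 of 1.80, 1.45 and 1.82.

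The 10 lower genes with the smallest p-values included 2 transcription factors of early development. Otx2, a factor of primed pluripotency and the anterior neural fate (chr14:48657677-48673819, minus strand), was at 2.07 and 2.16 CPM against 32.0 and 31.6 CPM (-3.91 ± 0.22, adjusted p = 1.7e-09). Tbx3, a T-box factor of naive pluripotency (chr5:119670669-119684724, plus strand), was at 125.8 and 129.2 CPM against 375.0 and 370.9 CPM (-1.55 ± 0.08, adjusted p = 1.65e-09). Aff1, a subunit of the super elongation complex, was at 51.1 and 47.9 CPM against 163.0 and 156.8 CPM (-1.69 ± 0.09, adjusted p = 1.4e-09). The importin Ipo5 (-1.09), the epoxide hydrolase Ephx2 (-2.67), the growth factor Pdgfc (-1.78), the exchange factor Mcf2 (-2.97), the kinase Stk35 (-1.04), the basement membrane protein Nid1 (-1.27) and the ubiquitin hydrolase Uchl1 (-1.44) were lower too (adjusted p of 1.12e-08 or less). Pdgfc and Nid1 did not pass the test against WT line 2 (-0.05 and 0.13, adjusted p = 0.77 and 0.21).

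Genes of naive pluripotency were mostly lower. Of 22, 12 were lower, against 14.2% of all genes, 4 were higher, a share near the 17.8% of all genes, and 6 did not pass the test (median -0.33). Without DOX 13 were lower and 4 higher, against 17.3% and 16.4% of all genes. Prdm14, a repressor of differentiation, was at 5.80 and 7.24 CPM against 26.9 and 26.5 CPM (-2.06 ± 0.15, adjusted p = 3.71e-08). Klf4 (-1.21), Klf2 (-1.09), Nanog (-0.69), Esrrb (-0.47) and Sox2 (-0.35) fell as well, at an adjusted p of 0.000848 or less. Pou5f1 was at 709.2 and 638.5 CPM against 727.6 and 759.1 CPM (-0.14, adjusted p = 0.144). Klf5 went the other way, at 1180 and 1063 CPM against 375.5 and 372.6 CPM (1.58 ± 0.08, adjusted p = 3.61e-10), and Zfp42 rose by 0.59 (adjusted p = 0.00159). Against WT line 2 the list's median was 0.00, with 9 higher and 10 lower, where 24.6% and 22.1% of all genes were. Pou5f1 then rose (0.35, adjusted p = 0.000785), Sox2 stood at 0.17 (adjusted p = 0.0544) and Zfp42 at -0.02 (adjusted p = 0.906).

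Many tested markers of the extra-embryonic lineages were higher. Of 17 primitive endoderm genes, 12 were higher and none lower (median 1.41), against 17.8% and 14.2% of all genes. The counts were 12 and 0 without DOX too. With DOX 8 were higher without WT line 1 replicate 2, and 9 without TRIM24-KO replicate 1 or WT line 1 replicate 1. Cubn, the endocytic receptor cubilin, was at 17.8 and 26.2 CPM against 0.685 and 0.530 CPM (5.14 ± 0.31, adjusted p = 5.52e-09), and Dab2, its adaptor, rose by 3.45 (adjusted p = 2.36e-06). The transcription factors Gata4 and Gata6 were low in absolute terms, at 6.29 and 6.99 against 1.37 and 1.44 CPM, and at 2.32 and 3.81 against 0.685 and 0.454 CPM. Sox17, Sparc and Lamb1 were among the 5 that did not pass. Of 16 trophoblast genes, 10 were higher and 1, Tfap2c, was lower (median 1.09). Without TRIM24-KO replicate 1 or WT line 1 replicate 2 the counts were 8 and 0 (Tfap2c -0.36, adjusted p = 0.142, and -0.43, adjusted p = 0.0776). The keratins Krt18 (2.04 ± 0.18, adjusted p = 3.66e-07), Krt19 (1.92, adjusted p = 4.83e-05) and Krt8 (1.15, adjusted p = 0.000603) rose. Gata3 was at 1.82 and 1.78 CPM in TRIM24-KO. As for the 2-cell genes, the number of such cells and their RNA content cannot be told apart. Against WT line 2, 13 primitive endoderm and 12 trophoblast genes were higher and 1 and 2 lower, where 24.6% and 22.1% of all genes were.

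**Figure D3:**
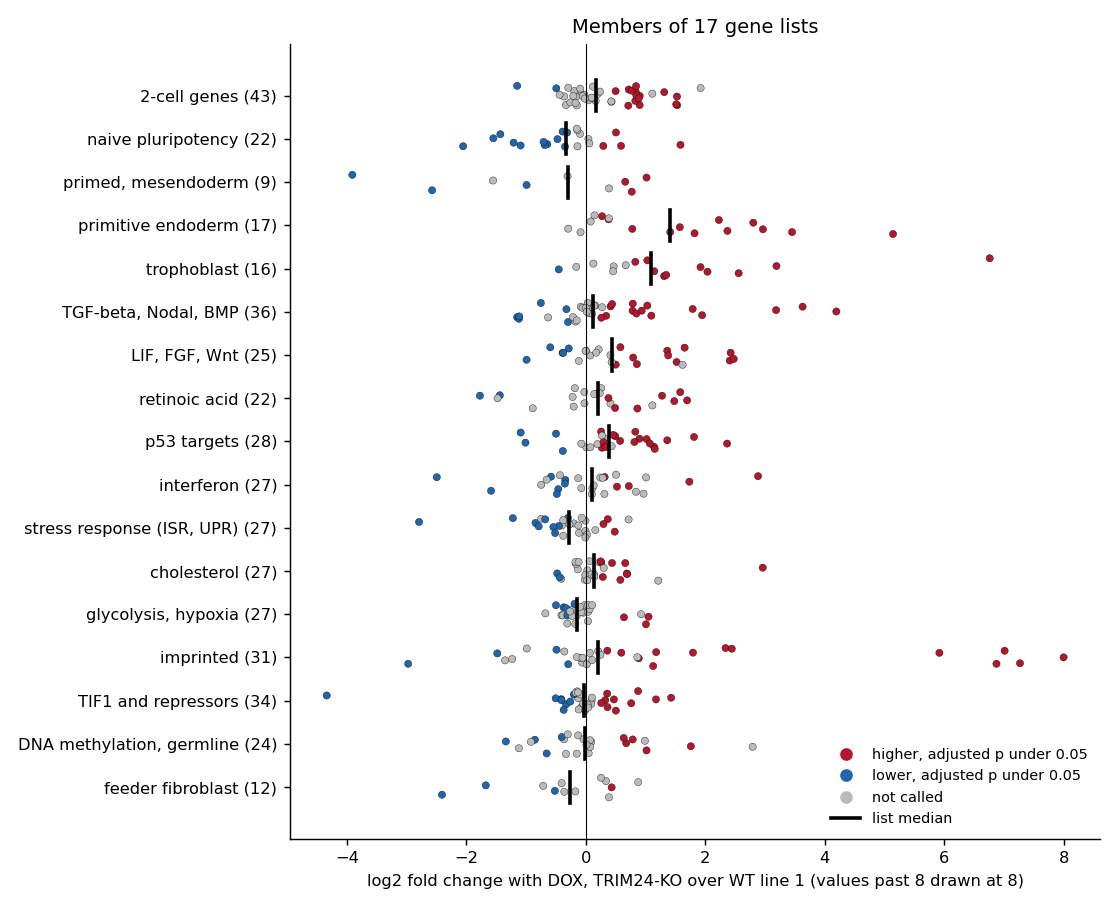
Each point is a tested gene of 1 of 17 lists (number tested in brackets) at its log2 fold change of TRIM24-KO over WT line 1 with DOX, with values past 8 drawn at 8; red and blue mark an adjusted p under 0.05, and the black bar is the list's median. The medians of the primitive endoderm list (1.41) and the trophoblast list (1.09) stand highest, and that of naive pluripotency is at -0.33.

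Of 9 tested genes of primed pluripotency and mesendoderm, 3 were higher and 3 lower, against 17.8% and 14.2% of all genes. Dnmt3b (1.02), the progenitor filament gene Nes (0.77, adjusted p = 0.000848) and the neural factor Pou3f1 rose, and Otx2, Lef1 and the neural factor Sox1 fell; Nes stood at -0.23 against WT line 2.

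Signalling genes moved in both directions. Among 36 genes of the TGF-beta, Nodal and BMP pathways, 15 were higher and 6 lower, against 17.8% and 14.2% of all genes, and 14 and 3 without WT line 1 replicate 1. With Bmp4, the ligand, went its target Id1, at 75.9 and 55.3 CPM against 8.30 and 6.20 CPM (3.19 ± 0.26, adjusted p = 1.26e-07). The Nodal antagonists Lefty2 and Lefty1 fell by 1.12 each (adjusted p = 3.71e-05 and 0.00138). Nodal itself and the signal carriers Smad1, Smad2, Smad3, Smad4 and Smad5 did not pass the test. Among 25 genes of LIF, FGF and Wnt signalling, 11 were higher and 5 lower, and 11 and 3 without TRIM24-KO replicate 1. Feedback genes of FGF and ERK signalling, Spry2 and the ERK phosphatase Dusp6 (170.1 and 137.8 against 31.3 and 26.8 CPM, 2.41, adjusted p = 4.07e-10), rose with Myc (120.2 and 105.5 against 20.6 and 21.5 CPM, 2.42, adjusted p = 1.7e-09). The Wnt target Axin2 fell by 0.60 (adjusted p = 0.000322) and the Wnt effector Lef1 by 0.99 (adjusted p = 0.00495), which did not pass without TRIM24-KO replicate 2 (-0.70, adjusted p = 0.0604); against WT line 2 Lef1 rose by 1.74 (adjusted p = 0.000324).

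Of 22 genes of retinoic acid signalling, the pathway whose receptors TRIM24 is known to bind, 7 were higher and 2 lower. Over all genes it was 17.8% and 14.2%. The counts fell when single libraries were left out. The median was 0.21, and 0.15 to 0.21 with any 1 of the 4 libraries left out. The receptor gene Rarg was at 296.3 and 272.7 CPM against 93.5 and 96.8 CPM (1.58 ± 0.09, adjusted p = 1.65e-09) and Rxra rose by 0.86 (adjusted p = 4.31e-06). The binding protein Crabp1 fell by 1.44 (adjusted p = 2.46e-05), and Rara did not pass the test (-0.22). Stra8 and Crabp2, genes that retinoic acid raises, were among the 7. Without DOX 8 of the list were higher and 4 lower, against 16.4% and 17.3% of all genes. The lower share there is near that of all genes.

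Genes of the p53 response were more often higher: 17 of 28 were higher, against 17.8% of all genes, and 4 were lower, a share near the 14.2% of all genes (median 0.38). Without TRIM24-KO replicate 2 or WT line 1 replicate 1 only 2 were lower. Perp, a membrane protein of apoptosis, was at 70.9 and 61.8 CPM against 13.2 and 12.6 CPM (2.37 ± 0.13, adjusted p = 2.15e-09). The kinase Plk3 rose by 1.81 (adjusted p = 2.32e-07), the cell-cycle inhibitor Cdkn1a by 1.36 (adjusted p = 1.01e-07) and the p53 ligase Mdm2 by 1.02 (adjusted p = 9.35e-08). Trp53 itself did not pass the test (-0.08). The ribonucleotide reductase subunit Rrm2b fell by 1.09 (adjusted p = 4.85e-05) and Ei24 by 0.50 (adjusted p = 0.000151); Ei24 rose against WT line 2 (0.35, adjusted p = 0.00205).

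Stress and metabolic lists held calls in both directions. Of 27 genes of the integrated stress and unfolded protein responses, 3 were higher and 9 lower, against 17.8% and 14.2% of all genes. The counts were 0 and 7 without TRIM24-KO replicate 1, and 1 and 6 without either WT line 1 library. Nupr1 was at 1.57 and 2.80 CPM against 13.9 and 14.9 CPM (-2.79 ± 0.20, adjusted p = 2.82e-08), and Chac1, a glutathione-degrading enzyme, fell by 1.22 (adjusted p = 0.000671). Of 27 cholesterol genes, 9 were higher and 2 lower with DOX, against 17.8% and 14.2% of all genes. Without DOX 3 were higher and 10 lower, against 16.4% and 17.3% of all genes. In the interaction test 2 passed, in the positive direction, against 0.188% of all genes. Without TRIM24-KO replicate 1 the counts with DOX were 6 and 0. The cholesterol exporter Abca1 was at 79.4 and 62.5 CPM against 9.21 and 9.08 CPM (2.96 ± 0.14, adjusted p = 4.28e-10) and was as far apart without DOX (3.27). Of 27 genes of glycolysis and hypoxia, 3 were higher and 5 lower, against 17.8% and 14.2% of all genes, and only 2 were lower without TRIM24-KO replicate 1 or WT line 1 replicate 2: the transporter Slc2a1 (1.01) and the hexokinase Hk2 (1.05) rose, and Pfkp (-0.50) and Aldoa (-0.37) fell (adjusted p of 0.00825 or less). Aldoa did not pass without TRIM24-KO replicate 1 (-0.34, adjusted p = 0.0582) or WT line 1 replicate 2 (-0.31, adjusted p = 0.0796). Against WT line 2, 18 of them were higher and 1 lower, where 24.6% and 22.1% of all genes were. Aldoa then rose by 0.69 (adjusted p = 2.82e-05) and Pfkp did not pass (-0.06, adjusted p = 0.599). Of 27 interferon genes, 5 were higher, a share near that of all genes, and 7 lower; without TRIM24-KO replicate 1 the counts were 3 and 5. Ifitm1, an antiviral membrane protein gene, was at 16.2 and 16.7 CPM against 91.6 and 93.2 CPM (-2.50 ± 0.20, adjusted p = 1.03e-07), and the peptide transporter Tap1 rose by 1.73 (adjusted p = 0.000659).

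Chromatin regulators were divided. Of 34 TIF1 genes and repressors of the 2-cell state, 10 were higher and 8 lower (median -0.03), against 17.8% and 14.2% of all genes. Rybp, a subunit of Polycomb repressive complex 1, was at 215.7 and 207.3 CPM against 80.1 and 77.1 CPM (1.43 ± 0.08, adjusted p = 1.59e-09). The H3K9 methyltransferase Ehmt2 rose by 1.17 (adjusted p = 6e-08), while Trim28 and Morc3 (-0.41, adjusted p = 9.33e-05) fell; Morc3 did not pass against WT line 2 (-0.11, adjusted p = 0.167). Of 24 genes of DNA methylation and the germline, 5 were higher and 4 lower, shares near those of all genes, and 3 and 2 without WT line 1 replicate 1: the methyltransferase Dnmt3b rose by 1.02 (adjusted p = 7.69e-08) and the dioxygenase Tet3 by 1.76 (adjusted p = 5e-07), while Dnmt3a fell by 0.85 (adjusted p = 3.97e-06) and the germ cell gene Dazl by 1.34 (adjusted p = 0.000256).

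The differences were not spread evenly over the genome. On chromosome 6, where Trim24 lies, 356 of 821 genes tested were higher (43.4%) and 63 lower (7.67%), against 17.8% and 14.2% of all genes. The median log2 fold change was 0.58 with DOX and 0.54 without. The medians of the other autosomes lay between -0.07 and 0.06. In bins of 10 Mb, the first 110 Mb of chromosome 6 had medians from 0.65 to 1.29 (0.65 to 1.03 without 3 bins of 18 or 19 genes), and from 110 Mb to 150 Mb they were -0.06 to 0.00. In the bin of Trim24, from 30 to 40 Mb, 47 of 69 genes were higher and 0 lower (median 0.90). Genes of chromosome 6 took 4.28% and 3.85% of the counts of tested nuclear genes, CT010467.1 left out, in TRIM24-KO and 3.15% and 3.12% in WT line 1. Trim24, Peg10, Mgll, Rybp, Hk2 and Tet3 lie in that stretch, and Nanog (-0.69) lies beyond it.

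On chromosome 14, 162 of 591 genes were higher (27.4%) and 94 lower (15.9%), against 17.8% and 14.2% of all genes. The lower share is near that of all genes. From 70 to 120 Mb the bin medians were 0.46 to 1.85, over 8 to 69 genes a bin, with under 20 in 3 of the 5 bins, and from 120 to 130 Mb the median was -0.95, with 12 of 21 genes lower. Spry2, Klf5, Abcc4, Uchl3 and Mycbp2 lie in the first stretch and Ipo5 in the second. Both shifts were there without DOX. On the Y chromosome 1 of 13 genes was higher and 6 lower. The higher one, Gm47283, was at 476 and 481 against 301 and 271 CPM, and the share of the Y chromosome in the counts of tested nuclear genes without CT010467.1 was 0.0598% and 0.0577% in TRIM24-KO and 0.0452% and 0.0535% in WT line 1. Eif2s3y, the Y copy of a translation factor gene, was at 0.911 and 0.635 CPM in TRIM24-KO and at 27.2 and 58.2 CPM in WT line 1, whose replicates themselves differed. The WT lines also differed from each other by stretches: WT line 2 over WT line 1 had medians of 1.20 to 1.60 over the first 40 Mb of chromosome 6, and of 0.44, 0.33 and 0.40 on chromosomes 1, 8 and 11. Gene dose was not measured. With the genes of chromosomes 6, 14 and Y left out, 2673 genes were higher and 2373 lower.

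**Figure D4:**
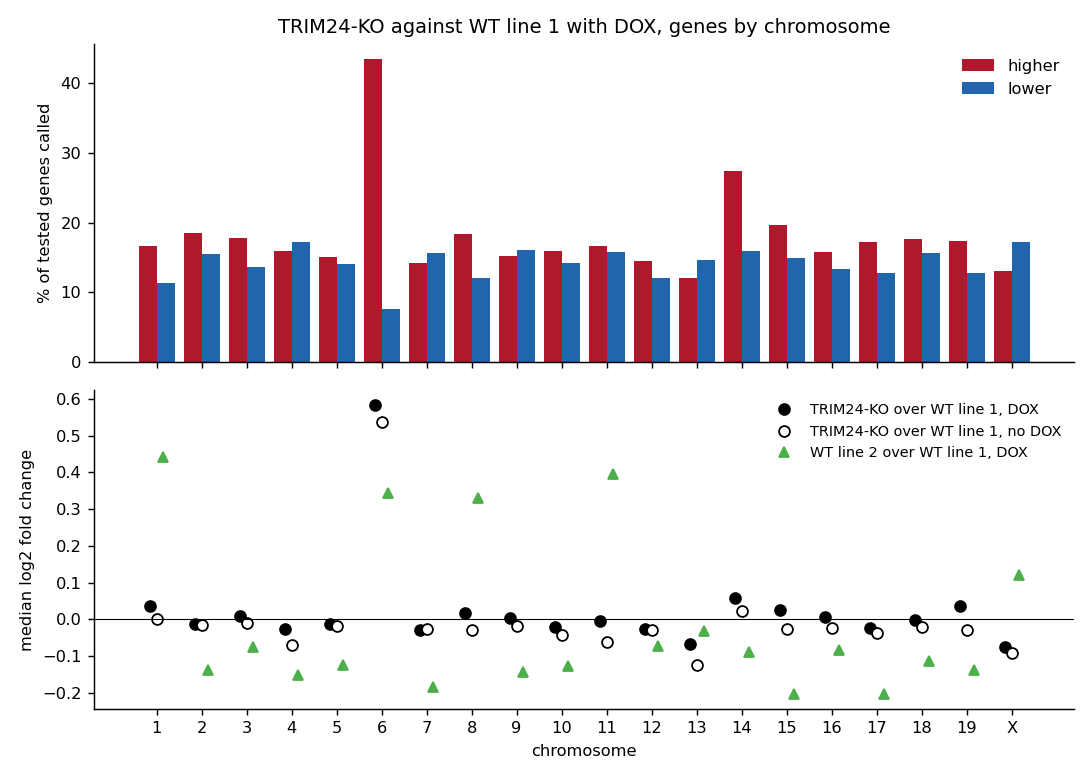
Upper panel: percent of tested genes on each chromosome that were higher (red) or lower (blue) in TRIM24-KO than in WT line 1 with DOX, at an adjusted p under 0.05. Lower panel: median log2 fold change per chromosome for that comparison (filled), the same without DOX (open) and WT line 2 over WT line 1 with DOX (triangles); chromosome 6 stands at 0.58 and 0.54, and the WT lines differ on chromosomes 1, 6, 8 and 11.

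Repeat subfamilies were counted by family name over all their copies. With DOX, 94 of 965 tested were higher in TRIM24-KO (9.74%) and 16 lower (1.66%), and past a log2 fold change of 1 there were 22 higher and 0 lower. Without DOX 126 were higher (13.1%) and 22 lower (2.28%), and 44 were called in the same direction at both times, which is 40% and 29.7% of the calls. By class, 56 LTR retrotransposons of 578 were higher and 13 lower, 25 LINEs of 150 were higher and 1 lower, and 8 DNA transposons of 171 and 3 SINEs of 35 were higher. The count rests on single libraries: without TRIM24-KO replicate 2 it was 25 higher and 16 lower, without TRIM24-KO replicate 1 280 and 16, and without WT line 1 replicate 1 24 and 6.

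MERVL led in abundance. MERVL-int, the internal part of the retrovirus, was at 23464 and 32470 CPM in TRIM24-KO and at 16217 and 19775 CPM in WT line 1 with DOX, and at 106.3 to 136.5 CPM in the same lines without. The groups with DOX did not overlap (log2 fold change 0.64 ± 0.16, edgeR quasi-likelihood test, adjusted p = 0.0147), and its long terminal repeat MT2_Mm, at 7400 and 9907 against 5100 and 6348 CPM, rose by 0.60 (adjusted p = 0.0223). Neither passed when only these 2 groups were fitted (adjusted p = 0.0665 and 0.0684). Both also missed the threshold without TRIM24-KO replicate 2 (MERVL-int 0.41, adjusted p = 0.187; MT2_Mm 0.40, adjusted p = 0.235) and without WT line 1 replicate 1 (0.50, adjusted p = 0.175; 0.45, adjusted p = 0.249). Among all subfamilies, 2.9% were higher and 34.7% lower in TRIM24-KO than in WT line 2. WT line 2 was higher still, at 57014 and 44909 CPM of MERVL-int, so that against it MERVL-int fell by 0.87 (adjusted p = 0.000602) and MT2_Mm by 0.71 (adjusted p = 0.00259). The responses to DOX of TRIM24-KO and WT line 1 did not differ past the threshold for MERVL-int (0.81, adjusted p = 0.15).

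The repeats with the smallest p-values were the early transposon (ETn) and related ERVK families, and these were higher with and without DOX and against both WT lines. MMETn-int was at 4258 and 4601 CPM in TRIM24-KO with DOX and at 1615 and 1435 CPM in WT line 1. Without DOX it was at 4681 and 4453 against 1533 and 1562 CPM, and in WT line 2 with DOX at 1453 and 1449 CPM. The log2 fold change was 1.54 ± 0.07 with DOX (adjusted p = 3.2e-10), 1.56 without and 1.61 against WT line 2. ETnERV-int (1.59 ± 0.08, adjusted p = 4.12e-10), the ETn long terminal repeat RLTRETN_Mm (1.15, adjusted p = 1.11e-09) and RLTR13G (1.64, adjusted p = 9.69e-09) went with it. Gammaretrovirus-like ERV1 families were also higher: RLTR1B rose by 1.51 (adjusted p = 1.39e-08) and its internal part RLTR1B-int, at 1068 and 1061 against 277.1 and 301.0 CPM, by 1.88 (adjusted p = 1.61e-07). MMERGLN-int rose by 1.08 (adjusted p = 5.35e-05), LTRIS2 by 1.32 (adjusted p = 8.09e-08) and the ERVK repeat ERVB7_1-LTR_MM by 1.33 (adjusted p = 4.71e-08), each by 1.15 or more also without DOX. The size differed with the WT line for some of them: against WT line 2, RLTR1B-int was higher by 2.85, MMERGLN-int by 1.88 and LTRIS2 by 1.77, and WT line 2 lay below WT line 1 in these by 0.97, 0.79 and 0.45 (adjusted p of 0.00215 or less). RLTR1B-int, MMERGLN-int, LTRIS2 and ERVB7_1-LTR_MM were picked after their values were seen.

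The retrotransposons named in this paragraph moved less or in 1 library. This does not hold for all others: RLTR9A3A, described below, rose by 1.69, with no overlap between the groups. IAPEz-int, an intracisternal A particle, was at 598.4 and 839.1 CPM against 432.1 and 470.3 CPM (0.67, adjusted p = 0.00189), and without DOX it did not pass (0.09). The sign turned against WT line 2, with no call (-0.11, adjusted p = 0.51). L1Md_A, a young LINE-1 family, stood at 779 and 1394 CPM against 1450 and 1482 CPM (-0.43, adjusted p = 0.177). L1Md_T, another, was at 2357 CPM in TRIM24-KO replicate 1 and at 10120 CPM in replicate 2, against 2784 and 3112 CPM, so only replicate 2 was above WT line 1 (1.08 ± 0.40, adjusted p = 0.0949). Without replicate 2 L1Md_T stood at -0.30 and L1Md_A at -0.89 (adjusted p = 0.00328), and without replicate 1 L1Md_T stood at 1.78 (adjusted p = 4.19e-06). The same library alone was high for LTRIS4B (7.04 and 682.7 against 1.22 and 5.37 CPM), MTC (459.8 and 2155 against 407.3 and 412.3 CPM), MT2B2 (165.2 and 690.1 against 150.7 and 178.5 CPM) and Lx2 (259.1 and 655.6 against 211.9 and 235.2 CPM), which passed the test all the same (adjusted p of 0.0233 or less) but not without that library (adjusted p of 0.218 or more). It is the library with 30.4% of its gene counts in the rRNA gene, and the part of that in these values was not tested.

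Of the 16 lower repeats, the 5 with the smallest p-values were the ERVK families RLTR16B_MM (-0.85, adjusted p = 0.000435), IAP1-MM_I-int (-0.95, adjusted p = 0.000561) and RLTR17 (-0.55, adjusted p = 0.000531), and the satellite-like MMSAT4 (-0.56, adjusted p = 0.000561) and MurSatRep1 (-0.36, adjusted p = 0.00495). The call of MurSatRep1 was lost without WT line 1 replicate 1 (adjusted p = 0.0566), with only the compared groups fitted (adjusted p = 0.0684) and against WT line 2 (-0.15, adjusted p = 0.108), and that of IAP1-MM_I-int against WT line 2 (-0.37, adjusted p = 0.0764). MMSAT4 was at 1284 and 1479 CPM against 2068 and 2004 CPM. Major satellite GSAT_MM (-0.25, adjusted p = 0.406), MMVL30-int (0.15, adjusted p = 0.441) and RLTR6_Mm (0.40, adjusted p = 0.116) did not pass. In the interaction test 4 repeats were positive (0.415%) and 1 negative (0.104%). The direction turned with the reference: against WT line 2 there were 2 positive and 135 negative, and against the mean of both WT lines 1 and 12. RLTR9A3A was at 26.8 and 28.8 against 9.97 and 7.26 CPM with DOX and under 1.03 CPM or at it without, a difference of responses of 2.36 ± 0.48 (adjusted p = 0.0373). IAPEY3-int (1.29, adjusted p = 0.00852), L1Md_F (1.04, adjusted p = 0.0401) and RLTR9D (0.88, adjusted p = 0.0373) were the other positive ones. L1Md_F did not pass with relative log expression scaling (adjusted p = 0.0591), without CT010467.1 (adjusted p = 0.0646) or with only the compared groups fitted (adjusted p = 0.142). RLTR9A3A and RLTR9D did not pass without CT010467.1 (adjusted p = 0.0549 each). RMER12B, the negative one (-1.68 ± 0.25, adjusted p = 0.004), was higher in TRIM24-KO both with DOX (1.03) and without it, at 25.7 and 22.8 against 3.16 and 4.25 CPM; with DOX it was lower than in WT line 2 (-0.63, adjusted p = 0.00408). Of the 5, RMER12B passed with any 1 of the 8 libraries left out, and the count over all subfamilies was then 1 to 59.

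**Figure D5:**
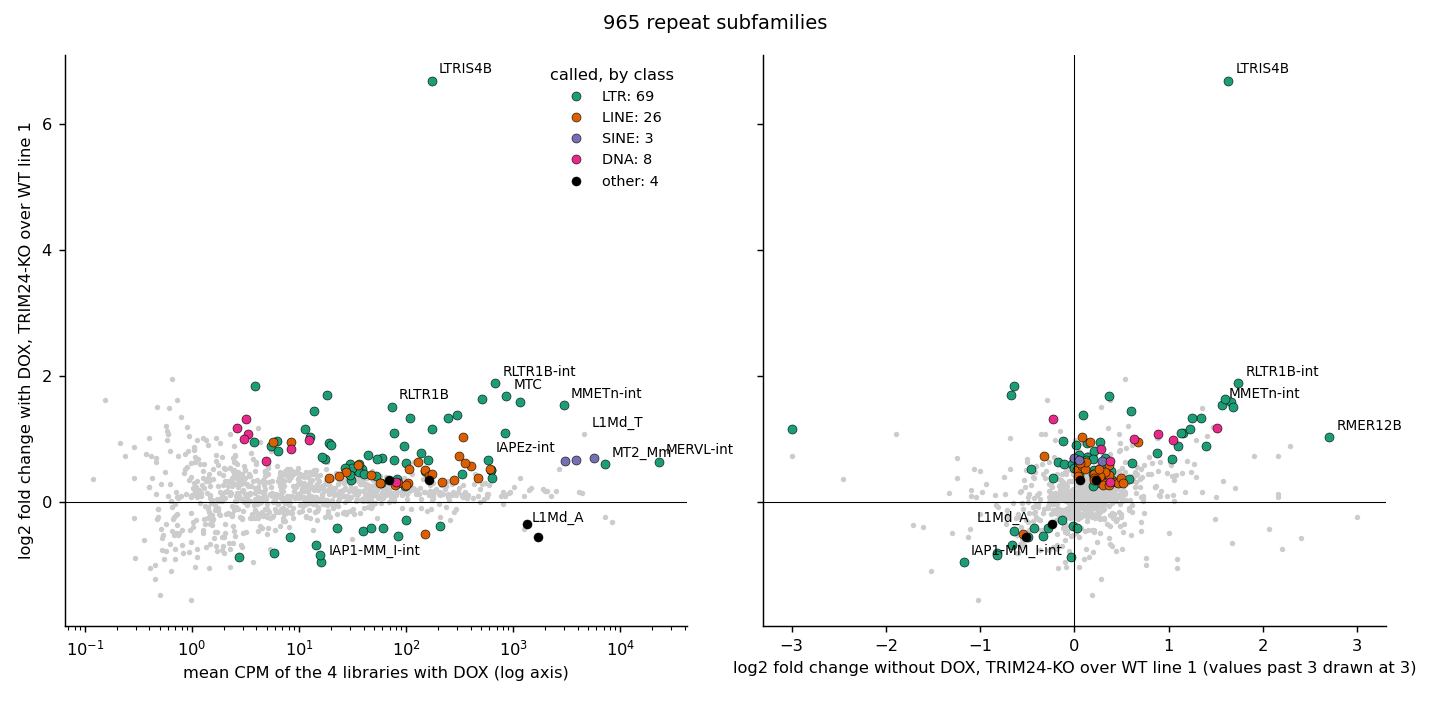
Each point is 1 of 965 repeat subfamilies at its log2 fold change of TRIM24-KO over WT line 1 with DOX (y axis), against its mean level in the 4 libraries in CPM on a log axis (left) and against the same fold change without DOX, with values past 3 drawn at 3 (right). Coloured points have an adjusted p under 0.05, by class. MMETn-int and RLTR1B-int lie as high without DOX as with it, and LTRIS4B (6.69) is high in 1 library only.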

How the data were processed

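RNA was measured by sequencing of total RNA after rRNA depletion, with a directional kit and paired reads of 75 bp, per the labels' protocols. The submitters' processing notes name bcl2fastq 2.20.0, cutadapt 1.18, STAR 2.7.6a and the mm10 build; the counting tool, its strand setting and its treatment of reads with several matches are not given in the sources used here. The deposited values are whole-number counts per gene and per repeat subfamily, which the authors had not normalized, per the file headers and the values. Genes with overlapping or near-identical copies are therefore uncertain.

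Groups follow sample titles; the treatment tag disagrees with them for the pLV2 WT libraries titled DOX and the TRIM24-KO and TRIM33-KO libraries without DOX. The 4 compared libraries were fitted with the other 12 of the pLV2 set (8 groups of 2, 8 residual degrees of freedom) so that groups of 2 share 1 estimate of the spread. Genes and repeats were filtered by group (filterByExpr), scaled with TMM factors from genes, and tested with edgeR 4.0.16 (R 4.3.3), quasi-likelihood F test, 2-sided, with Benjamini-Hochberg adjustment over all 18079 genes or all 965 repeats. CPM use the scaled library sizes, SE is the fold change over the root of F, and the biological coefficient of variation was 8.73%. The code was also run on simulated counts with known changes and recovered most of them. In those counts all libraries shared the same mean levels apart from the changes. They lacked the regional shifts and the outlying library of these data, so the run does not show how the fit behaves here. Of 55487 gene IDs, 54435 matched GENCODE M21 (GRCm38) with version, 792 without, and 260 did not match. Members of a list that did not pass the filter (at most 12 in a list) are left out of its counts.

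The members and lists were chosen with earlier results of these data known. Names follow a rule: fixed genes of the DUX program and TIF1 family; the 10 higher and 10 lower genes, and 5 and 5 repeats, of smallest p (for genes with a log2 fold change of at least 1, a mean of at least 50 counts, no overlap and no predicted or clone-based name); the 3 of largest value per sign in the interaction test; and up to 2 per list and direction. Genes and repeats named beyond these, among them Trim66, H19, Gata3, Gata4, Gata6, Klf2, Klf4, Esrrb, Krt8, Dusp6, Cdkn1a, Mdm2, Robo1, Dppa2, Hspa1b, the Smad genes, the promoter examples, LTRIS4B, MTC, MT2B2 and Lx2, were chosen after their values were seen. No fold is given where a group had 3 counts or fewer. Alternatives covered the scaling, the filter, DESeq2 1.42.0, the libraries fitted, the reference line and each library left out; the counts of list members without each library and the counts without chromosomes 6, 14 and Y were added after seeing the data.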

Additional observations from a re-analysis of the deposited data

Results flagged for a closer look

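The responses to DOX of TRIM24-KO and WT line 1 differed, by the interaction test, in 36 genes and 5 repeat subfamilies. The values are log2 differences of the responses, TRIM24-KO minus WT line 1, over 8 libraries in 4 groups of 2.

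Positive differences with the smallest p-values were those of Csrnp1 (1.32), Robo1 (1.47), Dhcr7 (1.16) and Grb2 (0.77). Genes of stress chaperones, Hspa1a (2.33) and Hspa1b (1.93), and the lipase gene Mgll (4.30) and Tmem132c (2.69) had larger differences from lower levels. Dppa2 differed by 0.75. Fbln1, an extracellular matrix gene on the fibroblast list, differed by 0.80: TRIM24-KO stood at 38.5 and 41.0 CPM with DOX and at 17.5 and 20.7 CPM without, and WT line 1 at 55.5 and 58.3 CPM and at 48.3 and 47.3 CPM. Negative differences were those of the stress gene Nupr1 (-1.85) and the dynein gene Dnah8 (-0.74).

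Among the repeats, RLTR9A3A (2.36), IAPEY3-int (1.29), L1Md_F (1.04) and RLTR9D (0.88) responded more positively in TRIM24-KO, and RMER12B (-1.68) more negatively. IAPEY3-int stood at -0.09 with DOX when TRIM24-KO replicate 2 was left out and at -0.53 against WT line 2.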

How the results depend on the processing

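Both sides have 2 libraries, and TRIM24-KO replicate 2 with DOX has the lowest scaling factor of the 4 (0.591); the cause of each change below was not tested. Genes called with DOX (5791) were 1892 past a log2 fold change of 1 and 3924 to 4905 without 1 library. Repeats called with DOX (110) were 190 with no filter, 42 with only the compared groups fitted, 22 past a log2 fold change of 1, 363 against WT line 2 (28 higher, 335 lower), 79 against both WT lines (31 higher, 48 lower) and 30 to 296 without 1 library. Genes called without DOX (6100) were 1834 past a log2 fold change of 1 and 3929 to 4785 without 1 library. Repeats called without DOX (148) were 284 with no filter, 255 with only the compared groups, 33 past a log2 fold change of 1, 51 against WT line 2, 56 against both WT lines and 36 to 138 without 1 library. Genes with a different response (36) were 175 with no filter, 17 with only the compared groups, 64 with DESeq2, 18 past a log2 fold change of 1, 61 against WT line 2 (12 of the 36 among them in the same direction), 70 against both WT lines and 5 to 57 without 1 library. Repeats with a different response (5) were 53 with no filter, 2 without CT010467.1, 9 with DESeq2, 137 against WT line 2 (2 positive, 135 negative), 13 against both WT lines (1 and 12) and 1 to 59 without 1 library.

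The labels do not say that replicate numbers pair the libraries. Across genes, the deviations of same-numbered libraries correlated at 0.0499 between the lines with DOX and 0.0126 without, at 0.118 between TRIM24-KO with and without DOX and at 0.0142 between WT line 1 with and without DOX, so the numbers were not taken as pairs. With a replicate block the counts were 5879 genes and 107 repeats with DOX, 6276 and 150 without, and 44 and 5 in the interaction test, and no call of the 167 named values changed. Of these 167, 39 lost their call without 1 library.

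Signs turned mostly with the reference. Against WT line 2 these log2 fold changes were Nes -0.23, Nid1 0.13, Pou5f1 0.35, Lef1 1.74, Trim24 -0.61, Aldoa 0.69, Thy1 -0.30, Zfp42 -0.0207, Zscan4c -1.40, Ei24 0.35, Zfp352 -0.0938, Sox2 0.17, Tcstv3 -0.98, Rian -0.0829, Tmem132c -0.19, AF067061 -0.56, IAPEz-int -0.11, MERVL-int -0.87, MMVL30-int -0.69, MT2_Mm -0.71, IAPEY3-int -0.53 and RMER12B -0.63, and the interactions Mgll -0.71 and Hspa1a -0.78. Medians were -0.63 for 2-cell genes, 0.0893 for repressors, -0.0569 for imprinted, 0.43 for glycolysis, -0.0190 for cholesterol and -0.53 for DOX-raised genes. Against the mean of both WT lines they were Pou5f1 0.10, Lef1 0.38, Trim24 -0.14, Aldoa 0.16, Zscan4c -0.64, Tcstv3 -0.0691, MERVL-int -0.11, MMVL30-int -0.27, MT2_Mm -0.0571 and IAPEY3-int -0.17, with medians of -0.23 for 2-cell, 0.16 for primed, -0.0139 for imprinted and 0.15 for glycolysis genes, and -0.000591 for DOX-raised genes. Without TRIM24-KO replicate 2 Zscan4c stood at -0.18, L1Md_T at -0.30, Zscan4d at -0.39, MMVL30-int at -0.0330, IAPEY3-int at -0.0864, Robo1 at -0.15 and the 2-cell median at -0.0851. Without TRIM24-KO replicate 1 Zscan4d stood at 0.30, GSAT_MM at 0.0731, L1Md_T at 1.78, IAPEY3-int at 0.47, Robo1 at 0.33 and mt-Nd4l at 0. Without WT line 1 replicate 1 Zscan4c stood at -0.01, and without replicate 2 Zscan4d at 0.16. Without chromosomes 6, 14 and Y the primed median was 0.39.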
